A study of Mus musculus with 12 samples.

Results

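Cytosolic ribosomal protein genes were measured by RNA-seq in Ocy454, a mouse cell line used as a model of the osteocyte, the long-lived cell that lies within mineralised bone. They were chosen by symbol alone: every Rpl or Rps gene with a number and at most a suffix a, x, l, al or l1, the 3 stalk genes Rplp0, Rplp1 and Rplp2, and Rpsa. The rule found 82 genes, 50 of the large and 32 of the small ribosomal subunit, and all 82 were listed in each of the 3 deposited tables, which held 11484 genes for PF431396, 11775 for PTH and 11592 for the knockout (KO). Among them 7 carry a suffix l, l1, al or x and are called paralogs below by that suffix alone (Rpl7l1, Rpl22l1, Rpl36al, Rpl39l, Rps4x, Rps12l1 and Rps27l). Of these, the X-linked Rps4x has no parent gene in the set, and Rps12l1 is annotated as a processed pseudogene. Fau, Rps3a1 and Rack1, also ribosome-associated, fell outside the rule by their names. The 12 samples formed 4 groups of 3. Wild-type Ocy454 cells received vehicle, PTH (parathyroid hormone) or PF431396, an inhibitor of the kinases FAK and PYK2, and the remaining group was labelled PDE8A KO, after a phosphodiesterase that degrades cAMP. DMSO appears in the column names of the vehicle group and of the KO group alike. The sources used here give neither dose nor duration, nor how many clones make up the KO group. Nothing says that libraries of a group came from separate cultures, so p-values measure only the spread between these samples, which may be technical.

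A ribosome holds nearly every ribosomal protein once, so these genes encode parts that are used in equal numbers. Their mRNAs are short, abundant and stable, and most begin with a C followed by a run of pyrimidines, the terminal oligopyrimidine (TOP) motif, through which mTORC1 and the protein LARP1 set how much of the mRNA is translated. Subunit proteins that are not built into ribosomes are degraded, and Rpl5 and Rpl11, carried together with the 5S rRNA, can bind MDM2 and so stabilise p53. In bone-forming cells much of the protein made is collagen and other matrix, which draws on this machinery.

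RefSeq start windows (GRCm38.p6) were found for 61 of the 82 genes and are shown for 4 genes whose start carries such a run and 4 without one, to let a reader compare the starts of genes whose values are described further on. Each window runs 5′ to 3′ over 20 bases before and 20 bases from the annotated start, and capitals mark a run of at least 5 pyrimidines that begins with a C within 5 bases of that start.
Rps27, chr3:90213629-90213668, minus strand: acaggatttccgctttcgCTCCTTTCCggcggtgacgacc
Rplp2, chr7:141447631-141447670, plus strand: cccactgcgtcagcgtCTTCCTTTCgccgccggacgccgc
Rpl31, chr1:39367831-39367870, plus strand: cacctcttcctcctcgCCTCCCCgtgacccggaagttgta
Rps15a, chr7:118116128-118116167, minus strand: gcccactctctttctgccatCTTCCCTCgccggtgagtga
Rpl5, chr5:107900508-107900547, plus strand: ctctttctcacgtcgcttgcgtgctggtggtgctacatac
Rps7, chr12:28635934-28635973, minus strand: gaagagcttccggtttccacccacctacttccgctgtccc
Rpl7l1, chr17:46782637-46782676, minus strand: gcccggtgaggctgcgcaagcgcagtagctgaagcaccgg
Rpl36al, chr12:69184048-69184087, minus strand: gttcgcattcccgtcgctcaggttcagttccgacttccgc
A C with at least 4 further pyrimidines stood exactly at an annotated start in 13 of 61 genes (21.3%), against 2.85% of 8997 other listed protein-coding genes and 0 of 69 genes of the mitochondrial ribosome. Within 5 bases of the start the shares were 47.5% and 22.0%. The ETS motif CTTCCG, searched on both strands from 250 bases before to 50 after the start, was present in 68.9% of the 61 genes, in 36.2% of the other genes and in 56.5% of the mitochondrial ribosomal protein genes. A window without a run says only that these letters are not at the annotated start. Nearly all genes of the family rose under PF431396, so a rise does not tell the kinds apart. Of the windows shown, all with a run belong to genes that rose, and of those without a run Rpl7l1 fell. Whether the change differed between genes with and without a run was not tested.

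Each library held 27715795 to 35752975 estimated counts, and levels below are the authors' normalised estimated counts, compared only within a table because each was scaled on its own. Pde8a itself was at 3099.6, 2579 and 2889.6 in the vehicle libraries and at 2074, 2438 and 2037 in the libraries labelled KO, so its transcript was lower but still abundant there. The deposited values of PF431396 replicates 1 and 3 did not differ in any of the 11484 genes, so the pair was counted as 1 library, which leaves n = 2. Vehicle library 1 stood apart in the ribosomal protein genes: their median lay -0.37 on the log2 scale from the mean of vehicle libraries 2 and 3, and 80 of 82 were below it, with Rpl37a (-0.99), Rpl6 (-0.95) and Rpl41 (-0.94) the farthest, while the median over all genes was -0.0029. The SD of this difference over all genes was 0.71, against 0.27 for vehicle library 2 minus library 3. Library 1 thus differed outside this family too. All 7 osteoblast markers and 4 of 7 osteocyte markers were listed, whereas Sost, Mepe and Fgf23 were not. In bulk RNA, fewer cells of a type and less RNA per cell cannot be told apart.

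In vehicle cells the genes were expressed at very different levels even per transcript length. The mean over the 3 vehicle libraries of the KO table had a median of 22482 normalised estimated counts per kilobase over the 82 genes. The highest were Rpl23a, whose protein sits at the exit of the peptide tunnel, at 69987 ± 14338 (SD, n = 3), the stalk gene Rplp0 at 63235 ± 10083 and Rpl13 at 62439 ± 7441. The lowest were Rpl7l1 at 1575 ± 121, Rpl39l at 2029 ± 89.2 and Rps15a at 2296 ± 251, so the range spanned 44.4-fold. It was 30.5-fold without the paralogs, with Rps15a then the lowest, and 23.6-fold over the shortest principal transcript of each gene. Neighbours in the order mostly could not be separated: of 81 neighbouring pairs, 78 had overlapping ranges over the vehicle libraries. Of the 7 paralogs 5 ranked between 77 and 82. Rps27l was at 4315 ± 139.8, Rpl22l1 at 3252 ± 362 and Rpl36al at 3236 ± 272 per kilobase. Rps4x, by contrast, ranked 5, and the parents Rpl36a and Rpl39 ranked higher than their paralogs, with Rpl36a at 13685 ± 3095 and Rpl39 at 23649.7 ± 5439.5. The place of Rps15a depends on the transcript: its longest principal transcript in GENCODE M21 has 5179 bases and its shortest 640, over which its level was 18579 and its rank 60 in place of 80. Rpl39l and Rpl7l1 kept the last 2 places over the shortest transcripts, in exchanged order. Levels of Rpl10 (rank 69) and Rps27 (rank 76) leave out reads assigned to their near-identical copies Rpl10-ps3 and Rps27rt. In normalised estimated counts, Rpl10-ps3 was at 26155, 34817 and 32938 in these vehicle libraries, and Rps27rt at 6183, 8709 and 9734.

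**Figure D1:**
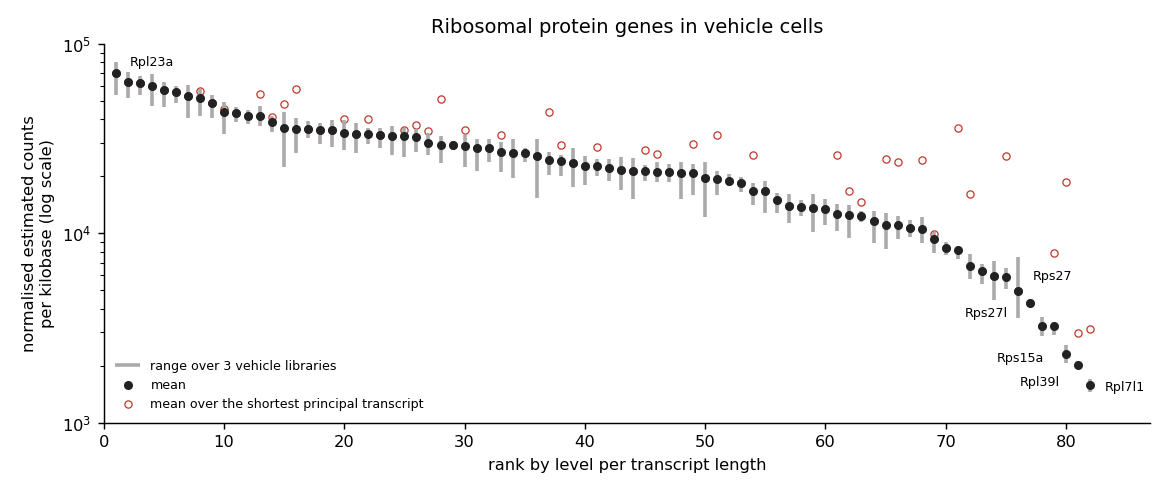
Level of each of the 82 ribosomal protein genes per kilobase of transcript (log axis) against its rank, in the 3 vehicle libraries of the KO table; black points are means, grey lines the range, and red open circles the mean over the shortest principal transcript. The order falls from Rpl23a to Rpl7l1, with grey ranges that overlap between most neighbours.

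Together the 82 genes supplied 5.00%, 6.56% and 6.24% of the listed estimated counts in the vehicle libraries of the KO table. Vehicle library 1 was the lowest of the 3. Under PF431396 the share was 10.5% and 10.7%, above 5.07%, 6.63% and 6.32% in the vehicle libraries of its table. Under PTH it was 6.20%, 6.43% and 6.12%, within the vehicle range of 4.96% to 6.50%. In the KO it was 5.38%, 4.35% and 4.42%; KO library 1 lay above vehicle library 1, so the groups overlapped. The ratio of small-subunit to large-subunit counts stayed between 0.638 and 0.682 in every library of the 3 tables. The mitochondrially encoded genes took a larger share in the PF431396 libraries, 11.8% and 13.0% against 3.89% to 5.19% in vehicle. With those genes taken out of the total the ribosomal protein share was 11.9% and 12.2% against 5.28% to 7.00%.

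**Figure D2:**
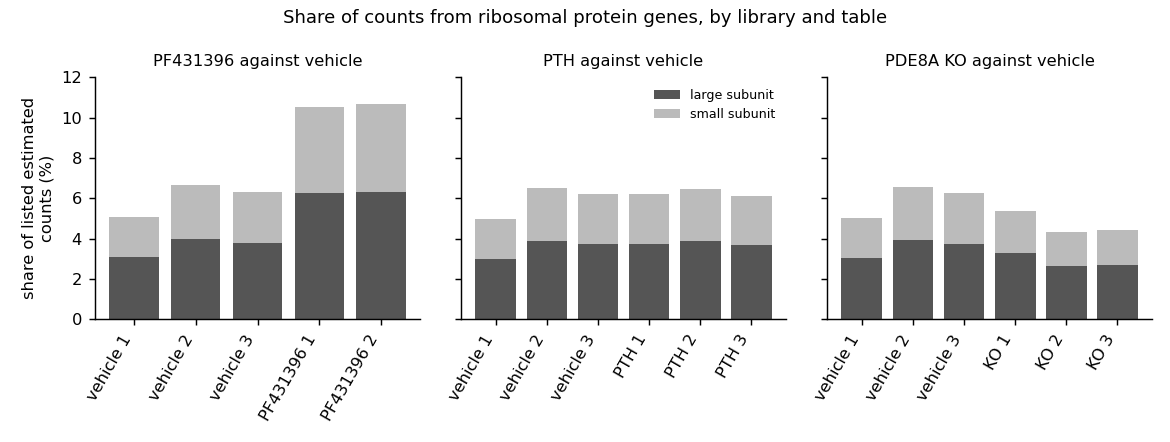
Share of the listed estimated counts (percent, bars from 0) that came from ribosomal protein genes, by library, in each of the 3 tables; dark parts are the large and light parts the small subunit. The PF431396 libraries stand at 10.5% and 10.7%, above every vehicle library, and vehicle library 1 is the lowest vehicle library in each table.

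The comparison of PF431396 with vehicle asks what follows inhibition of FAK and PYK2. Ribosomal protein mRNAs were higher almost without exception: 81 of the 82 rose (limma, Benjamini-Hochberg adjusted p below 0.05), against 16.9% of all 11484 genes, and 1, Rpl7l1, fell, against 20.3% of all genes. By at least 2-fold 72 rose (all genes 10.9%) and 1 fell (all genes 15.2%). The median log2 fold change was 1.41 over the 82 genes and -0.02 over all genes; it was 1.38 for the large and 1.42 for the small subunit. The libraries of the 2 groups did not overlap for 81 higher genes (all genes 31.8%) and for the 1 lower gene (all genes 34.0%). When every library was scaled to the same total, the median over all genes moved to -0.55 and that of the ribosomal protein genes to 0.88; 72 rose (all genes 6.53%) and 1 fell (all genes 39.3%). On that scale 18 rose by at least 2-fold (all genes 3.00%) and 1 fell (all genes 30.2%). The 9 that did not pass there, Rpl5, Rpl6, Rpl7a, Rpl10, Rpl15, Rpl18, Rpl22l1, Rpl36al and Rpl39l, all belong to the large subunit. With PF431396 replicate 2 left out 52 rose (all genes 5.56%) and 1 fell (all genes 10.8%). With the other PF431396 library left out 63 rose (all genes 7.40%) and 1 fell (all genes 13.5%); the lone library is then assumed to vary like the vehicle libraries. Without vehicle library 1, 81 rose (all genes 23.9%) and 1 fell (all genes 25.2%), with a median of 1.26.

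**Figure D3:**
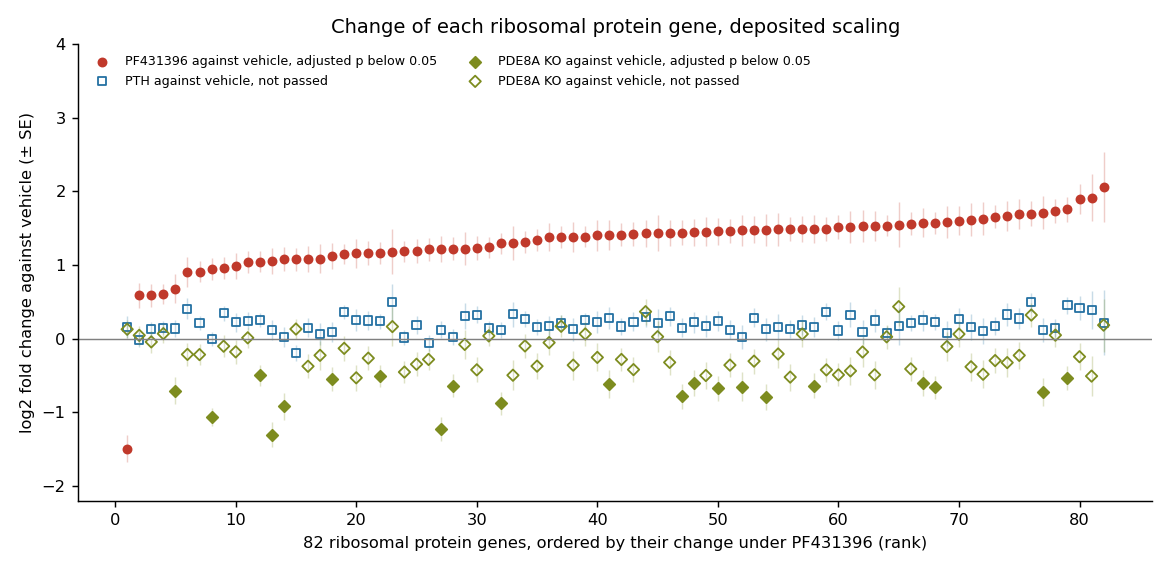
Log2 fold change against vehicle (± SE) of each of the 82 ribosomal protein genes in the 3 comparisons, ordered by the change under PF431396; filled symbols passed the test and open symbols did not. PF431396 values lie above 0 except for Rpl7l1 at -1.49, PTH values are all open, and KO values are mostly below 0 with 21 filled.

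The largest increases were spread over both subunits. Of the 28 genes of the family that were named by rule, all passed under PF431396. For 13 of these the call was lost in at least 1 alternative or left-out library, so single-gene calls from n = 2 are less firm than their p-values. Rpl31, a large-subunit protein at the tunnel exit where nascent-chain factors dock, was at 8139, 10888 and 10161 in the vehicle libraries and at 32676 and 32489.6 under PF431396 (log2 fold change 1.75 ± 0.17, adjusted p = 0.00262). Rpl37a, a zinc-binding protein of the large subunit, was at 6896, 14099.8 and 13498 and at 40293 and 42233 (log2 fold change 1.91 ± 0.32, adjusted p = 0.00702). For both genes the PF431396 libraries were close to each other and above every vehicle library, and for Rpl37a vehicle library 1 was well below the other two. Rps12l1, annotated in GENCODE M21 as a processed pseudogene of Rps12, was at 3724, 4750.3 and 5334 and at 18786 and 15331 (log2 fold change 1.90 ± 0.20, adjusted p = 0.00287). Its reads can be split with Rps12, which rose by a log2 fold change of 1.49 ± 0.19. The highest estimate belonged to Rps27, a zinc-finger protein of the small subunit, at 1080.2, 2167 and 1034 in vehicle and at 3557 and 8879 under PF431396 (log2 fold change 2.06 ± 0.48, adjusted p = 0.0186). Its 2 PF431396 libraries differed widely, and vehicle library 2 was the highest of its group.

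Rps27 is uncertain because Rps27rt, a copy annotated as protein-coding, is identical to it over the aligned 341 bases, and the quantification can divide reads between them. Rps27rt was at 5249.6, 7447 and 8326 in vehicle and at 16362 and 15384 under PF431396. Summed, the pair was at 6329.8, 9614 and 9360.2 in vehicle and at 19919 and 24263 under PF431396, which differ by 1.41 ± 0.22 on the log2 scale (adjusted p = 0.00616). With near-identical copies summed for all 30 members that had a listed copy, no PF431396 call changed.

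All 3 genes of the P stalk, which recruits the elongation factors, rose. Rplp2 was at 6775, 9345 and 8227 in vehicle and at 25919 and 26311 under PF431396 (log2 fold change 1.70 ± 0.17, adjusted p = 0.00269), and its base Rplp0 was at 56176, 77679 and 72432 and at 174756 and 194887 (log2 fold change 1.44 ± 0.18, adjusted p = 0.00358). Rplp1, added after its value was seen, had 1.69 ± 0.20 (adjusted p = 0.00319). The 5S particle genes rose as well: Rpl5 went from 12751, 15016 and 13993 to 24607 and 28946 (log2 fold change 0.94 ± 0.15, adjusted p = 0.0061), and Rpl11, also added after its value was seen, had 1.43 ± 0.24 (adjusted p = 0.00704). The PF431396 libraries lay above all vehicle libraries for each of these genes. Rps4x, an X-linked small-subunit gene, was at 36587, 50506 and 49522 and at 124361 and 123147 (log2 fold change 1.46 ± 0.18, adjusted p = 0.00353). At the lower end, Rpl7a, a large-subunit protein, was at 20396, 22819 and 21986 and at 33250.1 and 32936 (log2 fold change 0.61 ± 0.13, adjusted p = 0.0144), and did not pass at equal library totals (log2 fold change 0.07, adjusted p = 0.642).

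The 7 genes called paralogs by suffix had a median log2 fold change of 0.68, and the other 75 had 1.42. Among the 7, Rps4x and the pseudogene Rps12l1 rose most. Rpl7l1, a relative of Rpl7, was at 3633, 3363 and 3139 in vehicle and at 1355 and 1062 under PF431396 (log2 fold change -1.49 ± 0.18, adjusted p = 0.00332). Both PF431396 libraries were below every vehicle library, while Rpl7 itself rose from 25275, 36606 and 35112 to 68825 and 73909 (log2 fold change 1.16 ± 0.19, adjusted p = 0.0071). Rpl22l1 was at 1612, 1469 and 1298 and at 2065 and 2618 (log2 fold change 0.68 ± 0.19, adjusted p = 0.0361), beside Rpl22 with a log2 fold change of 1.73 ± 0.16. Rpl36al (0.59 ± 0.15) and Rpl39l (0.59 ± 0.17) also rose, beside 1.63 ± 0.22 for Rpl36a and 1.62 ± 0.22 for Rpl39. The 3 paralogs Rpl22l1, Rpl36al and Rpl39l had log2 fold changes of 0.14, 0.06 and 0.06 at equal library totals and did not pass there. Rps27l, induced by p53 in other cells, was at 1676, 1774 and 1795 and at 3944 and 3459.7 (log2 fold change 1.08 ± 0.16, adjusted p = 0.0049) and passed on both scales. Differences between a paralog and its parent were not tested.

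**Figure D4:**
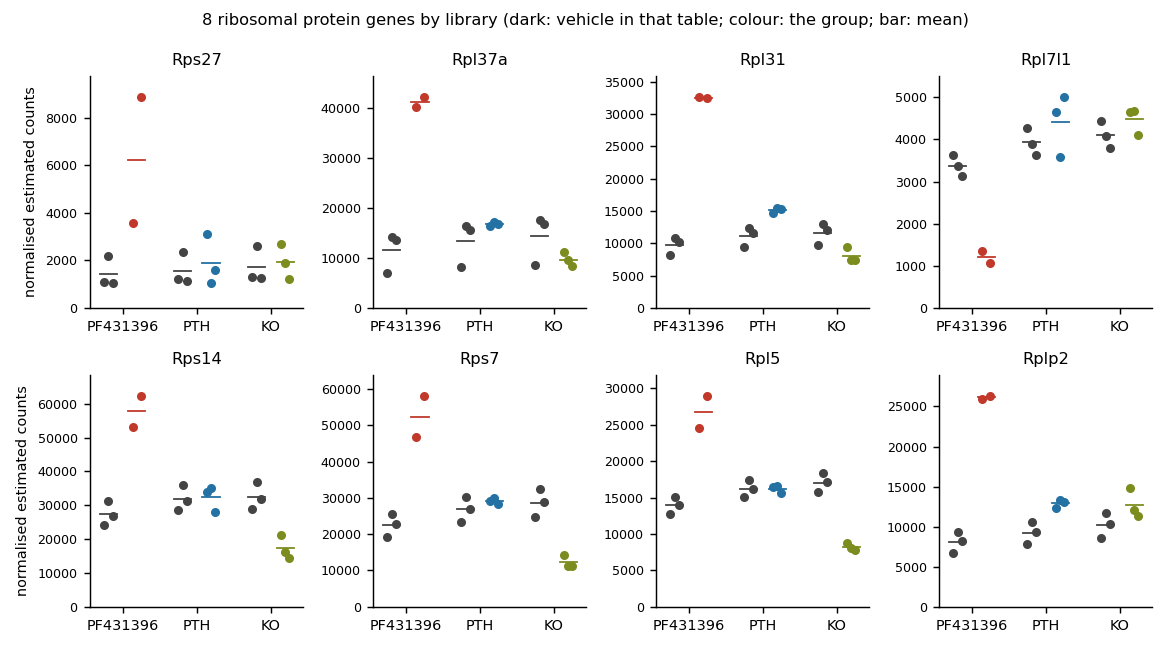
Normalised estimated counts of 8 ribosomal protein genes in every library (points; bars are means; axes from 0), with the vehicle libraries of each table in dark grey and the group in colour. Rpl7l1 is lower in both PF431396 libraries while the other 7 are higher, and Rps14, Rps7 and Rpl5 are lower in every KO library than in any vehicle library.

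Genes around the ribosome did not all move with it. Genes outside the symbol rule rose too: Fau, which encodes a subunit protein fused to a ubiquitin-like protein, had a log2 fold change of 1.77, Rps3a1 1.44 and the scaffold gene Rack1 1.06. Of 18 other genes known for a TOP motif, 11 rose, 0 fell and 7 did not pass (median 0.73); at equal library totals 3 rose and 4 fell. Over all genes the shares higher and lower were 16.9% and 20.3%, and at equal totals 6.53% and 39.3%. Tpt1 (1.38 ± 0.14, adjusted p = 0.00262), the elongation factor gene Eef1b2 (1.11 ± 0.16, adjusted p = 0.00485) and the poly(A)-binding gene Pabpc1 (1.03 ± 0.15, adjusted p = 0.00531) were among those that rose. Of 28 initiation factor genes 0 rose and 14 fell (0 and 22 at equal totals), among them Eif3a (-1.70 ± 0.23, adjusted p = 0.00436), Eif2s1 (-1.67 ± 0.22, adjusted p = 0.00382) and Eif6, which keeps the subunits apart (-1.21 ± 0.18, adjusted p = 0.0051). Of 23 regulators of TOP mRNAs and mTORC1 1 rose and 8 fell (0 and 15 at equal totals), with Sesn2, a stress-induced mTORC1 inhibitor, at -2.38 ± 0.35, adjusted p = 0.00517. Of 13 chaperones and importers of ribosomal proteins 0 rose and 5 fell (0 and 9 at equal totals), led by Grwd1, a chaperone of Rpl3, at -2.73 ± 0.25, adjusted p = 0.00247.

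Of 9 listed transcription factors of ribosomal protein genes 0 rose and 2 fell, Sp1 (-1.53 ± 0.16, adjusted p = 0.00281) and Tbp (-2.12 ± 0.41, adjusted p = 0.0105); at equal totals 6 fell, and the share on the deposited scaling was near that of all genes. Of 13 genes for ribosome rescue and quality control 0 rose and 5 fell (0 and 9 at equal totals), with the rescue factor gene Pelo at -2.67 ± 0.28, adjusted p = 0.00281. The 78 nuclear genes for the mitochondrial ribosome had a median of -0.47, with 8 higher and 28 lower, and at equal totals a median of -1.01, with 5 higher and 46 lower. Of 53 listed near-identical copies of ribosomal protein genes, most of them pseudogenes, 19 rose and 0 fell (median 1.12); at equal totals 13 rose and 0 fell. Transcript length moved with the PF431396 change outside the family too. Other protein-coding genes under 600 bases had a median log2 fold change of 1.13 (77 genes, 57.1% higher), those of 600 to 1000 bases 0.70, those of 1000 to 2000 bases 0.12 and those of 2000 to 4000 bases -0.14. The ribosomal protein genes in the same ranges had medians of 1.54, 1.34, 1.36 and 0.94, over 20, 32, 24 and 5 genes. These lengths are of the longest principal transcript. Over the shortest, Rpl18 has 679 bases in place of 2989 and Rpl22 has 474 in place of 2051, so the range of 2000 to 4000 bases rests on few genes and on that choice. Among 284 other genes at or above the lower quartile of the ribosomal protein levels, the median was 0.49 and 42.6% rose and 9.86% fell; at equal library totals the median was -0.04, 23.2% rose and 31.0% fell. The part of transcript length, of the mitochondrial share or of other cell types in the PF431396 result was not tested. The summed level of the 7 osteoblast markers was 48988 to 195140 in vehicle and 289508 to 320167 under PF431396, above every vehicle library. That of the macrophage and osteoclast markers, of which 2 of 6 were listed (Ctsk and Cd68), was 708 to 865 in vehicle and 3703 to 4809 under PF431396, and Ptprc, Csf1r, Adgre1 and Acp5 were not listed. The 4 listed osteocyte markers summed to 1638 to 4896 in vehicle and to 3342 to 5522 under PF431396. For the 2 listed muscle markers (Des and Acta1) the sums were 653 to 2710 and 680 to 803.

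**Figure D5:**
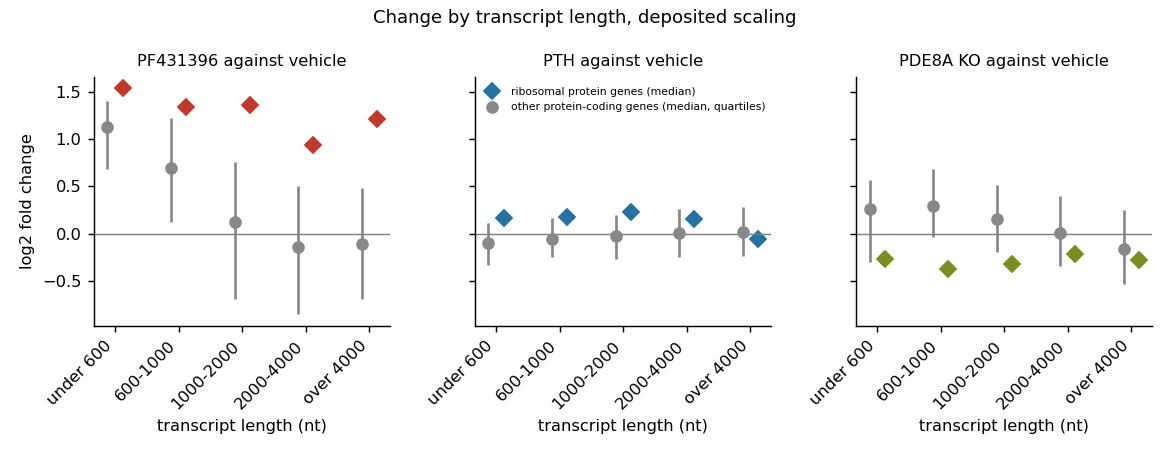
Median log2 fold change by transcript length (GENCODE M21) of ribosomal protein genes (diamonds) and of other protein-coding genes (grey, with quartiles) in the 3 comparisons. Under PF431396 the other genes fall from 1.13 to -0.11 with length while ribosomal protein genes stay between 0.94 and 1.54. In the KO the ribosomal protein genes lie below the other genes in each range. Lengths are of the longest principal transcript, and only 5 ribosomal protein genes fall in the range of 2000 to 4000 bases and 1 above it.

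The comparison of the libraries labelled PDE8A KO with vehicle asks what loss of this phosphodiesterase changes. Of the ribosomal protein genes 0 of 82 rose (all genes 14.6%; 0 also at an unadjusted p below 0.05, all genes 21.4%), 21 fell (all genes 13.2%) and 61 did not pass. The median log2 fold change was -0.34 over the 82 genes and -0.0022 over all genes, and -0.33 and -0.34 for the large and small subunits. By at least 2-fold 3 fell, Rps7 and Rpl5 among them (all genes 5.13%). Groups did not overlap for 24 lower genes (all genes 24.4%) and for 1 higher gene, Rps2 (all genes 25.4%). At equal library totals 24 fell (all genes 12.8%) and 0 rose (all genes 14.4%). The median deviation of the 82 genes from the vehicle mean was -0.12 in KO library 1, -0.46 in library 2 and -0.43 in library 3, and the count of lower genes depended on single libraries. Without vehicle library 1, 53 were lower (all genes 22.2%) and 0 higher (all genes 23.2%); without KO library 1 the count was 15 (all genes 6.30%), without library 2 it was 4 (all genes 5.75%) and without library 3 it was 5 (all genes 7.83%). Without vehicle library 2 it was 6 (all genes 8.68%) and without vehicle library 3 it was 9 (all genes 9.68%). The count was thus near or below the background without KO library 2 or 3 or vehicle library 2 or 3. The authors' deposited table called 26 lower (all genes 17.7%) and 0 higher (all genes 17.5%) at its adjusted p.

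Rps7 and Rpl5 were among the genes with the largest decreases. Rps7, a small-subunit protein that takes part in the processing of the small-subunit rRNA, was at 24655, 32368 and 28783 in vehicle and at 14339.9, 11204 and 11180.4 in the KO (log2 fold change -1.23 ± 0.16, adjusted p = 0.00201). Rpl5, the partner of the 5S rRNA, was at 15690.3, 18346 and 17092 and at 8705, 8063 and 7754 (log2 fold change -1.06 ± 0.12, adjusted p = 0.00111). In both genes the 3 KO libraries lay well below all 3 vehicle libraries, and the call held in every alternative and every left-out library that was run. Rpl11, which joins Rpl5 in the 5S particle and is named here after its value was seen, did not pass, at 0.03 ± 0.21 on the log2 scale (adjusted p = 0.937). Rps14, a small-subunit protein whose gene is lost in the human 5q- syndrome, was at 28836, 36943 and 31836 and at 21349.7, 16292 and 14427 (log2 fold change -0.92 ± 0.18, adjusted p = 0.00945); without KO library 2 it did not pass.

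Further down the order, Rps12 (-0.64 ± 0.18), Rps4x (-0.67 ± 0.17), Rpl22l1 (-0.71 ± 0.18) and Rpl31 (-0.54 ± 0.16) fell by less and each lost its call in at least 1 left-out library. Rpl26 and Rpl29, named after their values were seen, fell by log2 fold changes of -0.78 ± 0.17 and -0.88 ± 0.15 while a processed pseudogene of each rose. Gm15772, a copy of Rpl26, was at 1068, 1143 and 1048 in vehicle and at 4717, 3567 and 3728 in the KO (log2 fold change 1.87 ± 0.15, adjusted p = 0.000285). Gm8210, a copy of Rpl29, was at 994, 1005 and 1170.3 and at 2628, 2002 and 2209 (log2 fold change 1.10 ± 0.15, adjusted p = 0.00233). These 2 were the copies that rose among 55 listed. With copies summed to their parents, the log2 fold change of Rpl26 was -0.43 (adjusted p = 0.0903) and did not pass, that of Rpl29 was -0.64 (adjusted p = 0.0183) and that of Rps12 was -0.54 (adjusted p = 0.0532).

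The upper end of the KO order held Rpl41, which encodes a very short basic peptide of the ribosome, at 13099, 24751 and 25348 in vehicle and at 32672, 26190.5 and 23732 in the KO (log2 fold change 0.44 ± 0.27, adjusted p = 0.258); without vehicle library 1 its log2 fold change was 0.12 (adjusted p = 0.493). Rps2, a small-subunit protein at the mRNA entry, was at 45313, 63675 and 60773 and at 81820.1, 68907 and 66681 (log2 fold change 0.37 ± 0.17, adjusted p = 0.152), and Rplp2 stood at 0.32 ± 0.17 on the log2 scale. For Rpl41 and Rplp2 the groups overlapped, for Rps2 they did not, and none of the 3 passed the test. Rps27 had 0.18 ± 0.36, and the paralogs Rpl7l1 (0.13 ± 0.12), Rps27l (0.13 ± 0.14), Rpl39l (0.05 ± 0.13) and Rpl36al (-0.04 ± 0.15) did not pass either.

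Around the ribosome, Rack1 (-0.69 ± 0.17, adjusted p = 0.0231) fell, while Rps3a1 (0.27 ± 0.20, adjusted p = 0.346) and Fau (0.09 ± 0.17, adjusted p = 0.72) did not pass. Of the 18 other TOP genes 2 rose, Eif3l and Nap1l1, and 2 fell, Eef1b2 (-0.96 ± 0.17, adjusted p = 0.00579) and Tpt1 (-0.52 ± 0.16, adjusted p = 0.044). Of 28 initiation factor genes 5 rose and 1 fell, with Eif4g3 at 2.61 ± 0.25, adjusted p = 0.00064 and Eif3b at 0.72 ± 0.13, adjusted p = 0.0065. Of 23 TOP and mTORC1 regulators 3 rose and 3 fell, among them Eif4ebp2 (-1.17 ± 0.18, adjusted p = 0.00372), a translational repressor that mTORC1 inactivates, and Rptor (-0.73 ± 0.15, adjusted p = 0.0108), the mTORC1 scaffold. Chaperones and importers gave 0 higher and 0 lower of 13, transcription factors 0 higher and 1 lower of 9 (Gabpa, -0.82 ± 0.23, adjusted p = 0.033), and rescue and quality control 1 higher (Pelo, 0.89 ± 0.13, adjusted p = 0.00347) and 1 lower (Ltn1, -0.80 ± 0.16, adjusted p = 0.0101) of 13. Genes of the mitochondrial ribosome had a median of 0.17, with 11 higher and 3 lower of 78. At equal library totals these list counts were the same. The shares of all genes higher and lower were 14.6% and 13.2%, and at equal totals 14.4% and 12.8%. Both counts of the TOP genes and of the regulators were near those shares. So were the higher counts of the initiation factors and of the mitochondrial ribosome, and the lower count of the transcription factors. Other protein-coding genes under 600 bases had a median of 0.27 and those of 600 to 1000 bases 0.29, against -0.27 and -0.38 for ribosomal protein genes of those lengths. The summed level of the osteoblast markers was 62008 to 245370 in vehicle and 112971 to 124409 in the KO, that of the 2 listed muscle markers (Des and Acta1) 768 to 3236 in vehicle and 141 to 174, and that of Ctsk and Cd68 869 to 1073 in vehicle and 1685 to 3300.3. The 4 listed osteocyte markers summed to 2003 to 5936 in vehicle and to 5752 to 7620 in the KO. The part of these cell types in the result was not tested.

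PTH raises cAMP through its receptor, and its comparison with vehicle asks which transcripts respond to the hormone. No ribosomal protein gene passed the test: limma called 0 of 82 higher (all genes 5.36%) and 0 lower (all genes 2.35%), with 11 higher (all genes 13.5%) and 0 lower (all genes 10.8%) at an unadjusted p below 0.05. The authors' deposited table called 3 higher, Rplp2, Rpl12 and Rpl31 (all genes 8.23%), and 0 lower (all genes 6.29%). The median log2 fold change was 0.18 against -0.0034 for all genes, and at equal library totals 0.06 against -0.12, with 0 higher (all genes 4.04%) and 0 lower (all genes 4.25%). Rplp2, of the stalk, was at 7820.1, 10577 and 9303 in vehicle and at 12367, 13307 and 13022 under PTH (log2 fold change 0.49 ± 0.13, adjusted p = 0.066). Rpl31 was at 9477, 12430.1 and 11591 and at 14739, 15405 and 15365 (log2 fold change 0.45 ± 0.12, adjusted p = 0.0732). In both the PTH libraries lay close together and above all vehicle libraries, as they did for 35 of the 82 genes (all genes 19.0%), while only Rps27l lay below all of them (1 gene, all genes 16.8%).

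Rpl6, a large-subunit protein, had the highest estimate, at 14881, 28787 and 27923 in vehicle and at 32359, 31087 and 33628 under PTH (log2 fold change 0.50 ± 0.25, adjusted p = 0.268), and vehicle library 1 was far below the other two. Without vehicle library 1, 17 genes rose (all genes 18.0%) and 1, Rps21, fell (all genes 12.9%), with Rplp2 at 0.38 (adjusted p = 0.00334), Rpl31 at 0.34 (adjusted p = 0.00187) and Rpl6 at 0.19 (adjusted p = 0.0209). At the lower end Rps27l was at 1974, 2049.5 and 2072 and at 1809, 1935 and 1609 (log2 fold change -0.19 ± 0.11, adjusted p = 0.339), Rps15a had -0.06 ± 0.11 and Rpl5 had -0.0047 ± 0.10. Rps7, which fell in the KO, was within the vehicle range under PTH, at 29072, 29961 and 28355 against 23393, 30325 and 26951. Among the other lists, the helicase genes Eif4a2 (0.63 ± 0.09, adjusted p = 0.00709) and Eif4a1 (0.45 ± 0.09, adjusted p = 0.03) and Eif3b rose, as 3 of 28 initiation factors, and 0 fell; at equal library totals 1 rose and 1 fell. Of the mTORC1 regulators Ddit4, an inhibitor of mTORC1, rose (2.47 ± 0.41, adjusted p = 0.0145), and Eif4ebp1 (-1.07 ± 0.10, adjusted p = 0.00164) and Sesn2 (-1.43 ± 0.27, adjusted p = 0.0237) fell. None of Fau, Rps3a1 and Rack1, of the 18 other TOP genes, of the 13 chaperones, of the 13 rescue genes or of the 78 mitochondrial ribosomal protein genes passed, and of the 9 transcription factors Taf1 rose (0.62 ± 0.13, adjusted p = 0.0353), with 0 at equal totals. Beside these counts, 5.36% of all genes rose and 2.35% fell under PTH, and at equal totals 4.04% and 4.25%. The 4 listed osteocyte markers summed to 2014 to 5894 in vehicle and to 13796 to 14860 under PTH. For the osteoblast markers the sums were 59869 to 233543 and 198025 to 233256. Des and Acta1 together were at 790 to 3387 and at 235 to 510, and Ctsk and Cd68 at 848 to 1056 and at 726 to 1211. The part of these cell types was not tested.

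The 3 comparisons share the vehicle libraries, so groups were also set against each other, each relative to the vehicle mean of its own table, over the 11095 genes in all 3 tables. PF431396 exceeded the KO for 81 of the 82 genes (all genes 26.1%) and was lower for Rpl7l1 (1 gene, all genes 30.4%), with a median difference of 1.69 on the log2 scale. PF431396 exceeded PTH for 80 (all genes 29.8%) and was lower for Rpl7l1 alone (1 gene, all genes 32.4%), with a median of 1.20; Rpl10 was the gene that passed in neither direction. Reads of Rpl10 can be split with Rpl10-ps3, a copy identical over the aligned 737 bases that carried more counts than Rpl10 itself. Its part in the missing call was not tested. PTH exceeded the KO for 59 genes (all genes 29.6%) and was lower for 0 (all genes 28.8%), with a median of 0.53. All these counts and medians are on the deposited scaling, and the higher counts and medians at equal library totals are not given here. Calls between PTH and the KO were lost on that scale. Rpl15, for instance, differed by 0.40 (limma adjusted p = 0.0170) on the deposited scaling and by 0.29 (adjusted p = 0.0516) at equal totals. Among the widest differences between PTH and the KO were those of Rps7 (1.35 ± 0.13, adjusted p = 0.000199) and Rpl5 (1.05 ± 0.11, adjusted p = 0.000215).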

How the data were processed

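RNA-seq was measured in 12 samples. The submitters' processing notes name FastQC 0.11.5, Salmon, DESeq2 and the build GRCm38; versions of Salmon and DESeq2 are not stated there. In each of the 3 tables the authors set 1 group beside the same vehicle libraries, and the deposited signal values are estimated counts divided by 1 size factor per library. Within 0.02, the values are whole multiples of 1 step per library, the reciprocal of that size factor. The authors also deposited a log2 fold change and an adjusted p-value per gene, used here as an alternative only. Samples were grouped by their titles.

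Each table was tested with limma 3.58.1 (trended, robust; statmod 1.5.0, R 4.3.3) on log2(value + 1), so fold changes of low genes are understated, with Benjamini-Hochberg adjustment over all listed genes and a call at an adjusted p below 0.05. The procedure was run on simulated data with known changes, in which genes varied independently. Shifts shared by many genes of a library, such as that of vehicle library 1, were not simulated, so the run does not cover them. Summaries were made in Python 3.11.15 (pandas 2.3.3 with numpy 2.4.6) and figures with matplotlib 3.10.9. Depth was recovered as the library totals of the values divided by that step, and precision is limited by the 2 or 3 libraries per group. Lengths come from GENCODE M21 (82 of 82 members, 96.6% of 11996 listed genes) and start windows from RefSeq; a copy is near-identical at 95% identity over at least 50% of the transcript.

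The members and lists were chosen with earlier results of these data known. Named are, per comparison, the 4 members with the highest and the 4 with the lowest fold change, the 3 highest and the 3 lowest per length, the paralogs with their parents, Rps3a1, Fau and Rack1, and up to 4 genes per list with the smallest adjusted p. Rpl10, Rpl11, Rpl12, Rpl15, Rpl18, Rpl26, Rpl29, Rplp1, Rps21, Gm15772, Gm8210, Rpl10-ps3 and Rps27rt were named after their values were seen. Some results that the rule names are not reported here. Alternatives were equal library totals, a pseudocount of 10, a mean level of at least 100, the authors' adjusted p, a replicate block, each library left out, a fold of at least 2, the members other than paralogs, copies summed, and equal totals without vehicle library 1. The last pair was chosen after seeing the data.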

Additional observations from a re-analysis of the deposited data

How the results depend on the processing

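With each library left out in turn, the count of ribosomal protein genes higher under PF431396 ranged from 52 to 81, the count lower in the KO from 4 to 53, and the counts under PTH from 0 to 17 higher and from 0 to 1 lower. The median log2 fold change ranged from 1.26 to 1.51 under PF431396, from -0.46 to -0.23 in the KO and from 0.07 to 0.27 under PTH. The counts of 4 and 53 in the KO stood beside 5.75% and 22.2% of all genes, and the 17 under PTH beside 18.0%. PTH exceeded the KO for 51 to 70 genes and was lower for 0 to 2. With no library left out, 29.6% and 28.8% of all genes were higher and lower in that comparison. At equal library totals the PF431396 median was 0.88 and PTH was lower than the KO for 2 genes. With equal totals and vehicle library 1 left out, an alternative chosen after seeing the data, the PF431396 median was 0.75, 53 genes were lower in the KO, and under PTH 5 were higher and 12 lower with a median of -0.037. The shares of all genes in that setting, and with the replicate block below, are not given here. These counts are therefore not read as a result about the family. On the deposited scaling without vehicle library 1, 22.2% of all genes were lower in the KO, and under PTH 18.0% were higher and 12.9% lower. With equal totals and without vehicle library 1, Rpl41 under PTH (-0.25) and Rpl36al under PF431396 (-0.0003) changed sign. In that setting Rpl41 passed the test (limma adjusted p = 0.0102) and Rpl36al did not (adjusted p = 0.998). The authors' deposited adjusted p gave 3 higher under PTH. Requiring a fold of at least 2 left 3 lower in the KO. Restricting the set to the members other than paralogs left 0 lower under PF431396, since Rpl7l1 is then no member. With the replicate number as a block 8 were lower in the KO and PTH was lower than the KO for 1; same-numbered samples correlated at -0.048 to 0.099 in their deviations from group means, so the numbers were not taken to pair samples. Except where the construction shows it, the cause of these shifts was not tested. Over all settings 173 summary values stayed within 1.5 times or the spread between replicates and 21 moved; of single-gene values 925 stayed, 27 gained and 63 lost the call, 5 moved and 2 changed sign. The count-model test and the TMM scaling planned as alternatives were not run.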
